A study of Mus musculus with 10 samples.

Results

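Endothelial cells line blood and lymphatic vessels, and a set of 40 mouse genes that mark these cells or steer vessel growth was followed in murine pancreatic tumors grown with and without extra dietary glucose. The set was compiled by name from markers of blood and lymphatic vessels, tip-cell genes and angiogenic receptors with their ligands. All 40 genes were found by symbol among the 55359 genes of the deposited table, and all 40 were among the 24560 genes tested. Of the 40 genes, 30 were lower in tumors of mice that drank dextrose water (75.0%, against 54.7% of all genes tested). Only Cdh5 and Nrp1 had a limma adjusted p under 0.05 (5.0%, against 2.76% of all genes tested). The call of Nrp1 was lost when N1, N2, N4, N5, N6, T2 or T7 was left out. Cdh5, the VE-cadherin of endothelial junctions, was 2.69-fold lower and Nrp1, a VEGF co-receptor, was 2.34-fold lower by group means (n = 5 tumors per group), while none of the 40 genes was called higher.

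A mouse pancreatic cancer line, KPC K8484, carrying luciferase, had been injected into the pancreas of immunocompetent C57BL/6 J mice. The animals were 10 weeks old, and the methods of the study state equal numbers of both sexes for orthotopic experiments. The Y-linked reads given below do not show that balance among these tumors. The animals were then given regular water (normoglycemic, 5 tumors) or 30% dextrose water ad libitum (D30, 5 tumors) for 14 days, and the labels name no chemotherapy for these samples. The sample titles call the tumors PDX, while the methods of the study name KPC K8484 cells for orthotopic experiments. By those methods both groups share cancer cells of 1 line, and host and cancer cells are of the same species. The columns of the table carry N or T with a number that differs from the replicate numbers of the titles, and tumors are named here by column. Nothing in the table ties a column to an animal, and p values set the group difference against the spread between these tumors.

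In growing vessels VEGF-A and related ligands bind receptor tyrosine kinases on endothelial cells, chiefly VEGFR2 (Kdr), with VEGFR1 (Flt1) acting largely as a decoy and VEGFR3 (Flt4) serving lymphatic vessels. Neuropilins (Nrp1, Nrp2) act as co-receptors for VEGF and also bind class 3 semaphorins. Angiopoietins acting on the Tie2 receptor (Tek) regulate vessel stability, ETS and SoxF transcription factors set endothelial identity, and pancreatic ductal tumors are known for a dense stroma with few open vessels. In bulk tumor RNA, fewer endothelial cells and less RNA per endothelial cell cannot be told apart. Nor can either be told apart from a change in the RNA that cancer or stromal cells make from the same genes.

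Values are normalized counts, which correct the reads of a gene for the size factor of its tumor, and fold changes are differences of mean log2(normalized count + 1), D30 minus normoglycemic, with the standard error (SE) of limma's moderated test. A gene was called at a Benjamini-Hochberg adjusted p under 0.05 over all genes tested. Recovered reads ranged from 29192261 to 42122304 per tumor, and genes detected by 1 read or more from 20482 in T5 to 25912 in N2. The D30 tumor T5 held 0.480% of its reads in the haemoglobin genes, against 0.0120% to 0.0356% in the other 9 tumors, and the D30 tumor T4 alone held reads of Y-linked genes (841, and 0 in the other 9). Fold changes without T4 and T5 are therefore given for many of the genes, though not for all.

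The 40 genes were lower more often than higher with D30. Their log2 fold change was below 0 for 30 genes (75.0%, against 54.7% of all genes tested) and above 0 for 10, with a median of -0.62 against -0.06 for all genes tested and a range from -2.14 for Aplnr to 1.09 for Pgf. The calls were 2 of 40 genes (5.0%, against 2.76% of all genes tested by limma), both lower, where 1.36% of all genes tested were called lower. At an unadjusted p under 0.05 there were 16 of the 40 genes, against 17.3% of all genes tested. Of these 15 were lower, where 9.54% of all genes were lower at that level, and the only one higher was Nrp2. The 5 values of each group did not overlap for 2 genes (5.0%, against 6.19% of all genes tested), again Cdh5 and Nrp1. Without T5 the median of the 40 genes was -0.41, and without T4 and T5 it was -0.27 (-0.03 for all genes). Without these 2 tumors the log2 fold change of 27 of the 40 genes shrank by more than 1.5 times or changed sign, that of 3 (Vegfc, Sox17 and Icam2) grew by more than 1.5 times, and that of the other 10 did neither.

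**Figure D1:**
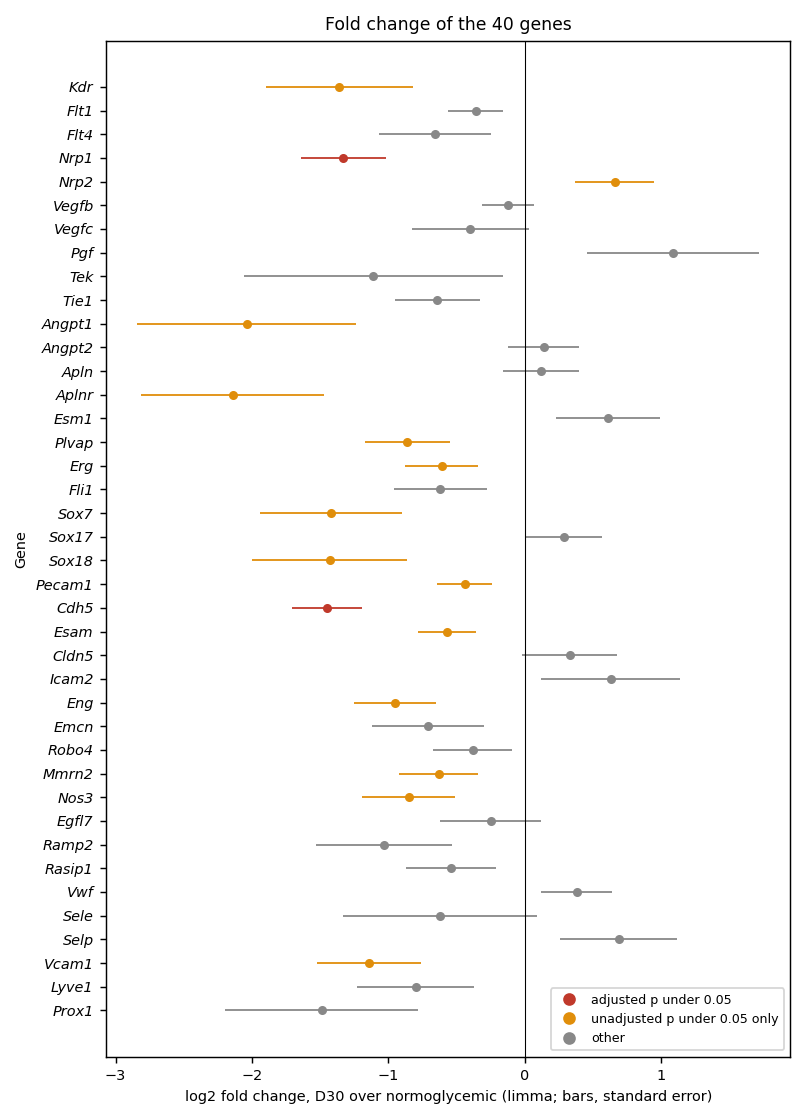
Log2 fold change (x axis, D30 over normoglycemic; bars, SE from limma) of each of the 40 genes (y axis, in order of role), colored by adjusted and unadjusted p. Most points lie left of 0, with 30 genes below it, and the only 2 called genes are Cdh5 at -1.45 and Nrp1 at -1.33.

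The shift was uneven among D30 tumors. Of the 40 genes, 19 had their lowest value of all 10 tumors in T5 and 11 in T4, while T1 and T2 held the lowest value of 3 genes each and T7 of none. T5 also had the fewest genes detected (20482), and how often each tumor was lowest over all genes was not counted. T7 had the highest value of 7 genes, among them Tek, Robo4, Rasip1 and Vwf. Among normoglycemic tumors N2 held the highest value of 11 genes, including Kdr, Tie1, Plvap, Eng and Nos3. The median deviation of the 40 genes from their means over all tumors was -0.90 in T5 and -0.49 in T4 on the log2 scale, and lay between -0.17 and 0.27 in the other D30 tumors and between 0.10 and 0.55 in normoglycemic tumors.

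**Figure D2:**
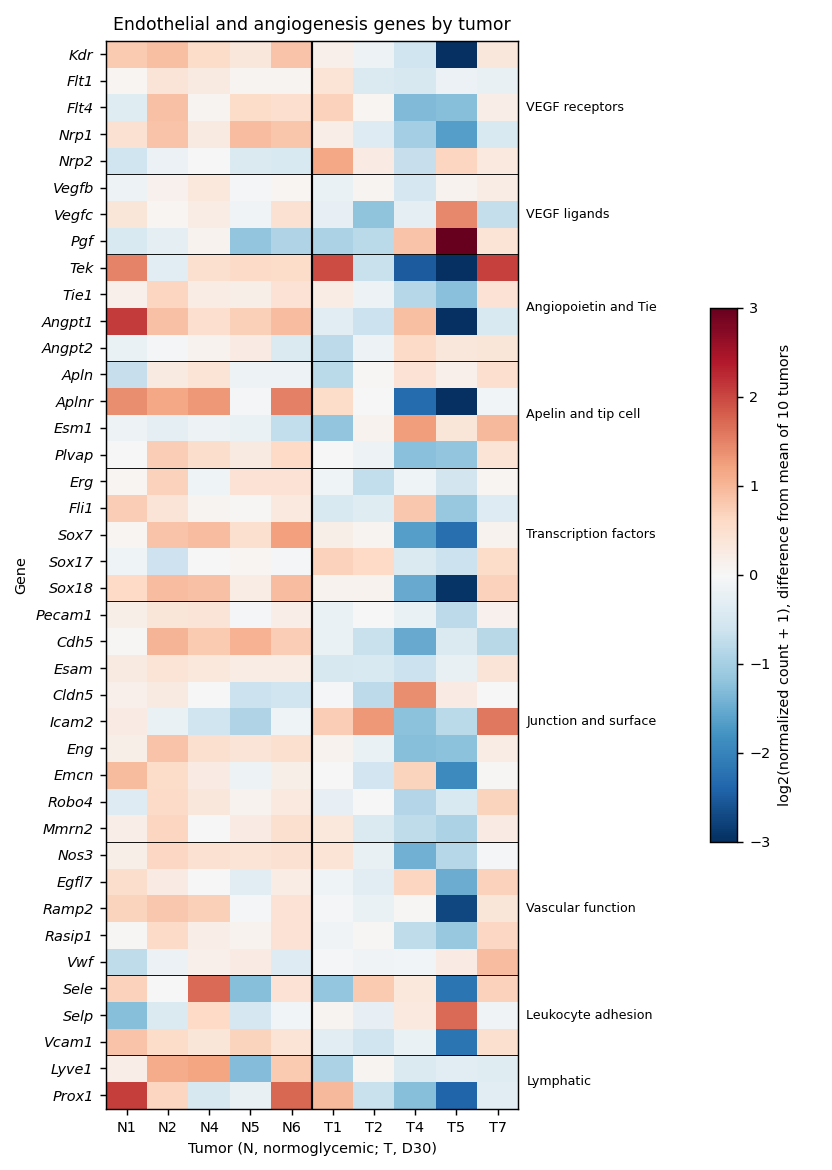
Difference of log2(normalized count + 1) from the mean of the 10 tumors for the 40 genes (rows, in order of role) in each tumor (columns; N, normoglycemic; T, D30), with colors ending at -3 and 3. Blue cells gather in T5 and T4, which held the lowest value of 19 and 11 genes, whereas T7 is mostly pale or red.

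Among genes of endothelial junctions and of the cell surface, Cdh5 had the clearest difference between the groups. Cdh5 lies on chr8:104101625-104144511 (plus strand, GRCm38) and overlaps the antisense RNA Gm29682, whose reads cannot be separated here since no source used states counting by strand. It had 7205, 14207, 12107, 14529 and 11676 normalized counts in N1, N2, N4, N5 and N6 (mean 11945 ± 2931 SD, n = 5) and 6142, 4430, 2480, 5160 and 3972 in T1, T2, T4, T5 and T7 (4437 ± 1367, n = 5). The lowest normoglycemic tumor, N1, stood above the highest D30 tumor, T1. The log2 fold change was -1.45 (SE 0.26, limma adjusted p = 0.0117), and edgeR and DESeq2 on the recovered reads gave adjusted p values of 0.0127 and 5.4e-05. The call held when each tumor was left out in turn, with adjusted p values between 0.00435 and 0.0463, and without T4 and T5 (-1.28, adjusted p = 0.00352). An exact two-sided permutation test of the 5 against 5 values gave p = 0.00794, the smallest this design allows.

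Per kilobase of annotated exon, Cdh5 had the highest mean of the set in normoglycemic tumors, with 2842 normalized counts per kb, and 1056 in D30 tumors, where Vegfb (1138) and Sox17 (1067) stood above it. Pecam1 (CD31 of endothelial junctions), by comparison, had 181 and 136 per kb. The count of Cdh5 over that of Pecam1 was 6.57 to 15.4 in normoglycemic and 2.95 to 9.26 in D30 tumors, and the ranges overlapped. Among the other junction and surface genes, Esam had 432 and 301, Eng 423 and 237 and Cldn5 311 and 428 normalized counts per kb.

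The other endothelial surface genes differed less. Pecam1 had 1097, 1239, 1256, 946 and 1107 normalized counts in N1, N2, N4, N5 and N6 and 834, 950, 841, 557 and 1051 in T1, T2, T4, T5 and T7 (log2 fold change -0.44, SE 0.20, limma adjusted p = 0.283). Both T2 and T7 overlapped with the normoglycemic range, and the value was -0.26 without T4 and T5. Esam, an adhesion molecule of endothelial tight junctions, had 1219, 1348, 1258, 1192 and 1182 against 732, 739, 649, 864 and 1332, so that 4 of 5 D30 tumors lay below the narrow normoglycemic range and T7 lay within it (-0.57, SE 0.21, adjusted p = 0.175).

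Eng, the TGF-beta co-receptor endoglin, had 1381, 2186, 1697, 1593 and 1706 normalized counts against 1310, 1052, 501, 521 and 1414 (log2 fold change -0.95, SE 0.30, limma adjusted p = 0.123). T4 and T5 had the lowest values and T7 overlapped with N1, and the difference was -0.44 without T4 and T5. Mmrn2, an extracellular matrix protein of vessels, had 302, 408, 264, 310 and 367 against 326, 195, 154, 135 and 310, with T1 and T7 inside the normoglycemic range (-0.63, SE 0.29, adjusted p = 0.279, and -0.27 without T4 and T5).

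The remaining 4 surface genes had unadjusted p values above 0.05 in limma. Emcn (endomucin) and Robo4 were lower by group means, at 407 ± 124 against 280 ± 151 and 428 ± 98.3 against 344 ± 146 normalized counts (SD, n = 5). Without T4 and T5 the log2 fold change of Emcn was -0.54 (-0.71 with all tumors) and that of Robo4 -0.06 (-0.38 with all tumors). Cldn5, the tight junction claudin of endothelium, had means of 440 and 606 with its highest value, 1246, in T4. Icam2, a leukocyte ligand kept on resting endothelium, split the D30 tumors, with 269, 402 and 487 in T1, T2 and T7 but 68.2 and 91.6 in T4 and T5, against 85.9 to 191 in normoglycemic tumors. Without T4 and T5 it was called higher (1.53, limma adjusted p = 0.00452), and with all tumors it was not (0.63, adjusted p = 0.571).

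**Figure D3:**
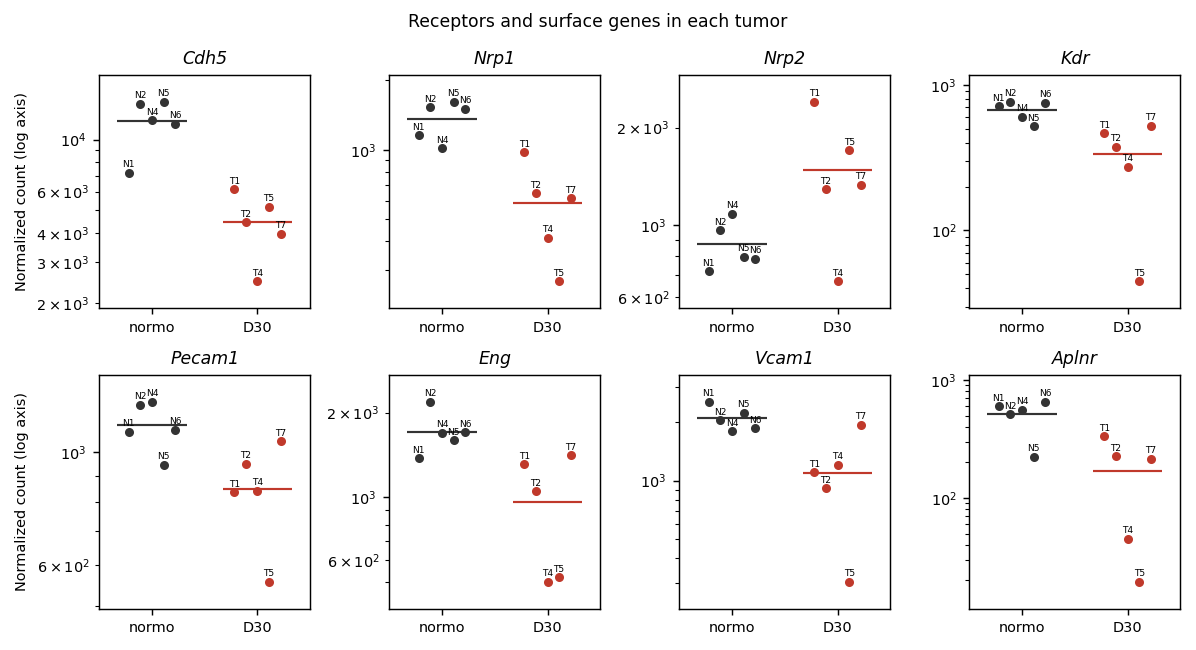
Normalized counts (y axes, log scale, not starting at 0) of 8 receptor and surface genes in each tumor, by group, with lines at group means. Cdh5 and Nrp1 leave a gap between the groups, whereas Kdr, Pecam1, Eng, Vcam1 and Aplnr overlap, with T5 at 44.6 for Kdr and 19.5 for Aplnr.

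Among the 5 VEGF receptors and co-receptors, Nrp1 was called lower and the other 4 were not called. Nrp1 (chr8:128358604-128503363, plus strand, GRCm38) had 1157, 1530, 1015, 1620 and 1508 normalized counts in N1, N2, N4, N5 and N6 (1366 ± 264 SD, n = 5) and 976, 649, 415, 268 and 616 in T1, T2, T4, T5 and T7 (585 ± 268, n = 5). T1 came close to N4 without overlapping. The log2 fold change was -1.33 (SE 0.31, limma adjusted p = 0.0358), with adjusted p values of 0.0460 in edgeR and 0.00541 in DESeq2 and an exact two-sided permutation p of 0.00794. Leaving out 1 tumor kept the fold change between -1.55 and -1.08, but the call was lost without N1, N2, N4, N5, N6, T2 or T7 (adjusted p of 0.0603, 0.113, 0.0518, 0.104, 0.102, 0.0566 and 0.0689). It held without T1, T4 or T5, and without T4 and T5 together (-0.88, adjusted p = 0.0159).

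Nrp2, the paralog of Nrp1 that binds VEGF-C and is found on veins and lymphatic vessels, had 721, 962, 1085, 798 and 787 normalized counts in normoglycemic and 2409, 1289, 669, 1702 and 1332 in D30 tumors. It was above the normoglycemic range in 4 of 5 D30 tumors and below it in T4. With all tumors it was not called (log2 fold change 0.66, SE 0.29, limma adjusted p = 0.263). Without T4 it was called higher (0.92, adjusted p = 0.0193), 1 of the 3 genes called in that fit, where 6.43% of all genes tested were called. Counting of Nrp2 may include reads of the overlapping antisense RNA Gm29083.

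The count of Nrp2 over that of Nrp1 within each tumor was 0.623, 0.629, 1.07, 0.492 and 0.522 in normoglycemic tumors and 2.47, 1.98, 1.61, 6.35 and 2.16 in D30 tumors, without overlap. This ratio was looked at after the values of both genes were seen, and no test is given for it. Being formed within a tumor, it does not depend on the size factor, and T4, in which both genes were low, stood above every normoglycemic tumor as the other D30 tumors did. Per kilobase of exon, Nrp1 exceeded Nrp2 in normoglycemic tumors (140 against 73.5 normalized counts per kb) and Nrp2 exceeded Nrp1 in D30 tumors (125 against 59.8).

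To show the sequence from which the neuropilins are read, the 250 bases before the RefSeq start of each gene are given (GRCm38.p6, plus strand, 5′ to 3′), with the ETS core AGGAAG or its complement CTTCCT in capitals. The Nrp1 window is chr8:128358823-128359072, inside the gene as annotated in GENCODE M21, and the Nrp2 window is chr1:62703067-62703316. Nrp1 holds 1 such core, 91 bases before the start, and Nrp2 holds none.
Nrp1: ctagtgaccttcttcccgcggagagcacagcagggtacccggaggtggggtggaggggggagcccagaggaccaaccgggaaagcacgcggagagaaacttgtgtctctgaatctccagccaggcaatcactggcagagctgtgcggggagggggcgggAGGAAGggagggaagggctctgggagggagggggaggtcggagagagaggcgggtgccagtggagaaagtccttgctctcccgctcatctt
Nrp2: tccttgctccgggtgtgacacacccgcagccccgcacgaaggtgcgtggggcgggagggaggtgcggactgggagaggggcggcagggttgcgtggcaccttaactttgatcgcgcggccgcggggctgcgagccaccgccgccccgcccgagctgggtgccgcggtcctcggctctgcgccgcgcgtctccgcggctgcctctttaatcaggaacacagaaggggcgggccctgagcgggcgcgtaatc
RefSeq promoter windows (250 bases before to 50 after the start) were at hand for 22 of the 40 genes. The core was found on either strand, in any window of the gene, in 12 of these genes (54.5%, against 38.4% of 27025 genes with a window), among them Erg, Eng, Flt1, Robo4, Tie1 and Nrp1. The HIF core ACGTG was found in none of the 22 (21.8% of all genes), ACAAT of SOX factors in 4 (18.2%, against 34.4%) and AGATAA of GATA factors in 2 (9.09%, against 12.7%). A match describes letters of the window and is no evidence of binding.

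The signaling receptor Kdr had 710, 767, 602, 521 and 755 normalized counts in normoglycemic and 463, 375, 273, 44.6 and 525 in D30 tumors (log2 fold change -1.36, SE 0.54, limma adjusted p = 0.213). T5 was far below all other tumors, T7 overlapped with N5, and without T5 the value was -0.74 (adjusted p = 0.113). Flt1 had 1784 ± 184 against 1424 ± 393 and Flt4 267 ± 82.6 against 188 ± 107 (SD, n = 5), with adjusted p values of 0.380 and 0.443 in limma. Without T4 and T5 the log2 fold change of Flt1 was -0.26 (-0.36 with all tumors) and that of Flt4 -0.01 (-0.66 with all tumors). The count of Flt1 over that of Kdr was 2.19 to 3.21 in normoglycemic tumors and 2.57 to 4.53 in D30 tumors other than T5, where it was 31.3.

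**Figure D4:**
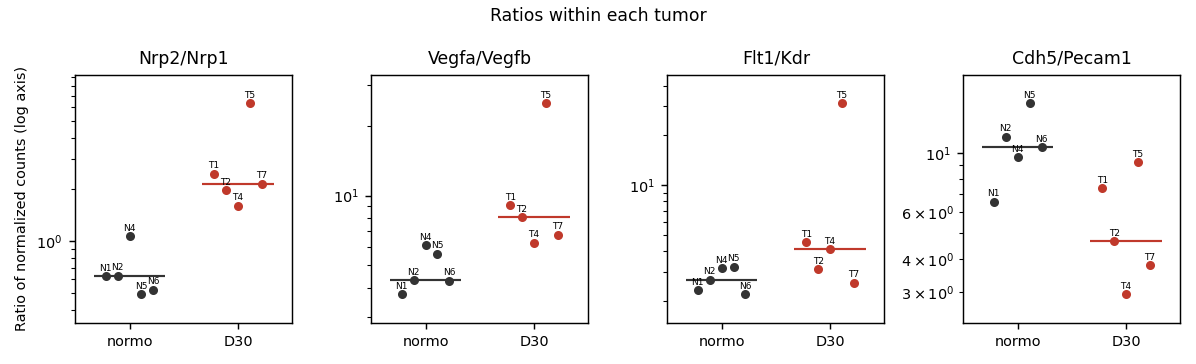
Ratios of normalized counts within each tumor (y axes, log scale), by group, with lines at group medians. Nrp2/Nrp1 (medians 0.623 and 2.16) leaves a gap between the groups, whereas Flt1/Kdr and Cdh5/Pecam1 overlap. Vegfa/Vegfb (medians 4.31 and 8.08) nearly touches, with 6.12 in N4 and 6.26 in T4.

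Of the ligands in the set, none was called in limma or edgeR. Pgf, the placental growth factor that binds Flt1, had 353, 400, 526, 216 and 262 normalized counts in normoglycemic and 254, 278, 884, 4464 and 652 in D30 tumors. Its higher group mean (1306 against 351) came largely from T5, far above every other tumor, and T1 and T2 lay within the normoglycemic range. The log2 fold change was 1.09 (SE 0.63, limma adjusted p = 0.409), 0.42 without T5 and 0.10 without T4 and T5. DESeq2 called Pgf (1.89, adjusted p = 0.0395), 1 of the 3 genes of the set it called. Of the 22439 genes to which DESeq2 gave an adjusted p, it called 8.17%. edgeR called Cdh5 and Nrp1 only, where it called 4.13% of the 17127 genes it tested.

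Vegfb, a ligand of Flt1, had 1964 ± 246 normalized counts in normoglycemic and 1826 ± 347 in D30 tumors (SD, n = 5), and Vegfc, the lymphangiogenic ligand of Flt4, had 103 ± 16.1 and 96.6 ± 83.7. For Vegfc the highest value was again in T5 (244), and the other 4 D30 tumors, at 37.8 to 75.1, were below all normoglycemic tumors, at 82.3 to 121. Neither was called (limma adjusted p of 0.792 and 0.687).

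**Figure D5:**
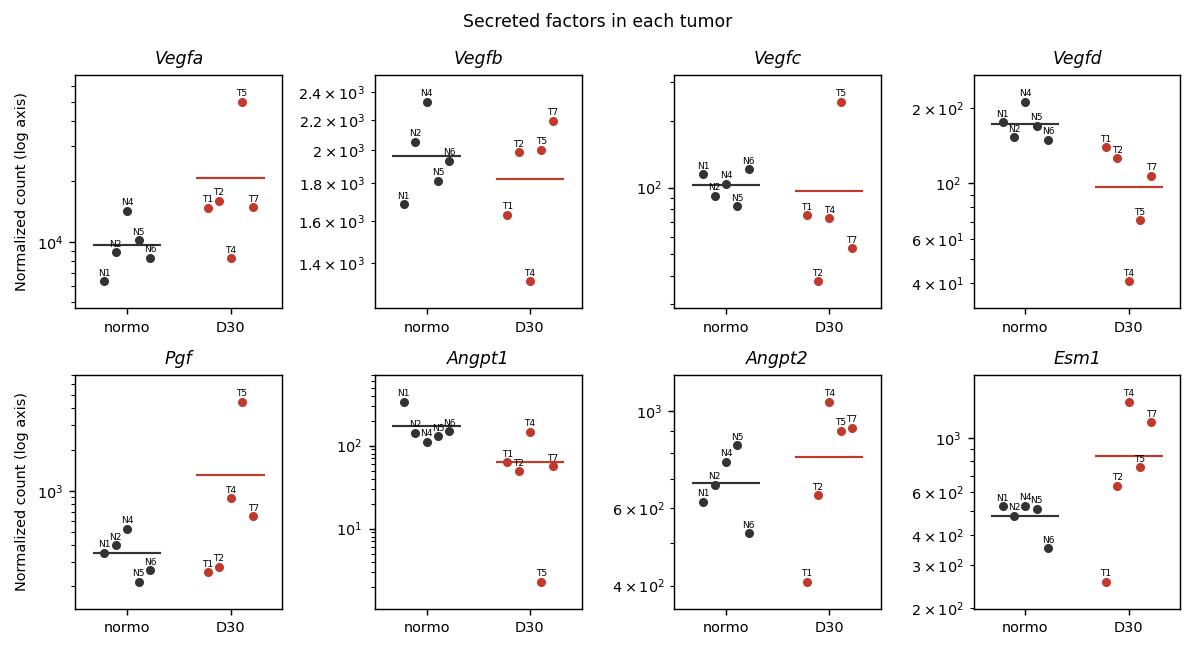
Normalized counts (y axes, log scale) of 8 secreted factors in each tumor, by group, with lines at group means. T5 is the highest tumor for Vegfa, Vegfc and Pgf and the lowest for Angpt1 (2.29), and the groups overlap in every panel except that of Vegfd.

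In the angiopoietin and Tie system no gene was called. Angpt1, the stabilizing Tie2 agonist made by mural and stromal cells, had 337, 143, 111, 129 and 148 normalized counts in normoglycemic and 62.7, 49.3, 147, 2.29 and 56.5 in D30 tumors (log2 fold change -2.04, SE 0.80, limma adjusted p = 0.210). The value of 2.29 in T5 is under 3 reads in that tumor. T4 overlapped with the normoglycemic range, 4 of 5 D30 tumors were below it, and without T4 and T5 the gene was called lower (-1.49, adjusted p = 0.0121). It was among the 6 genes of the set called in that fit, which also held Cdh5, Nrp1, Nrp2, Icam2 and Sox17, where 9.97% of all genes tested were called. Without T5 alone the calls were Cdh5 and Nrp1, where 3.54% of all genes were called.

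Tek (Tie2) varied widely within the D30 group, with 655, 104, 28.9, 12.6 and 692 normalized counts in T1, T2, T4, T5 and T7 against 134 to 470 in normoglycemic tumors. The limma value of -1.11 (SE 0.95) came with means of 266 and 299 that go the other way. Tie1, its orphan partner, had 667 ± 101 and 463 ± 207 (SD, n = 5), with a limma adjusted p of 0.298. Its log2 fold change was -0.64 with all tumors and -0.16 without T4 and T5. Angpt2, which endothelium releases on activation, had 685 ± 120 and 783 ± 256 (adjusted p = 0.839), and it lies within Mcph1 on the opposite strand. The ratio of Angpt2 to Angpt1 had medians of 4.74 and 13.0, with overlapping ranges.

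Neither gene of the apelin pair was called. Aplnr, the apelin receptor of sprouting vessels and veins, had 601, 513, 562, 223 and 653 normalized counts in normoglycemic and 334, 226, 45.1, 19.5 and 215 in D30 tumors. N5 sat among the D30 values and T4 and T5 were the lowest of all. Its log2 fold change of -2.14 was the lowest of the 40 (SE 0.67, limma adjusted p = 0.119), and it was -0.92 without T4 and T5 (adjusted p = 0.0832). Its ligand Apln, a tip-cell gene, had 847 ± 239 and 933 ± 284 (SD, n = 5, adjusted p = 0.867).

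Plvap, the diaphragm protein of fenestrated capillaries, had 1537, 2560, 2211, 1847 and 2289 normalized counts against 1544, 1373, 643, 667 and 2020 (log2 fold change -0.86, SE 0.31, limma adjusted p = 0.176). T1 and T7 were inside the normoglycemic range, and without T4 and T5 the value was -0.34. Esm1, the tip-cell proteoglycan endocan, was higher by group means, with 479 ± 73.7 against 842 ± 450 (SD, n = 5, adjusted p = 0.439), and T1, at 257, was the lowest of all tumors. Esm1 overlaps Gzmk and Plvap overlaps Gtpbp3 on the opposite strand.

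None of the 5 transcription factors was called. Sox18, a SoxF factor of vascular development, had 347, 436, 418, 265 and 433 normalized counts in normoglycemic and 244, 245, 78.6, 28.6 and 370 in D30 tumors (log2 fold change -1.43, SE 0.57, limma adjusted p = 0.216), and without T4 and T5 it was -0.41. Its relative Sox7 had 44.2, 77.3, 81.3, 59.3 and 101 against 48.3, 44.7, 12.7, 8.01 and 45.8 (-1.42, SE 0.52, adjusted p = 0.178, and -0.59 without T4 and T5). In both genes T4 and T5 were the 2 lowest tumors and the groups overlapped.

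Sox17, the third SoxF gene, which marks arterial endothelium and is also a factor of definitive endoderm, did not follow them. It had 3888, 2797, 4259, 4446 and 4181 normalized counts in normoglycemic tumors and 6915, 6438 and 6226 in T1, T2 and T7, above all normoglycemic tumors, with 3151 and 2726 in T4 and T5. It was not called with all tumors (0.29, limma adjusted p = 0.642) and was called higher without T4 and T5 (0.75, adjusted p = 0.0116). Per kilobase of exon Sox17 had 820 normalized counts in normoglycemic and 1067 in D30 tumors, against 234 and 119 for Sox18 and 22 and 9.67 for Sox7.

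The ETS factor Erg, which maintains endothelial identity, had 135, 210, 118, 174 and 175 normalized counts against 117, 76.7, 117, 87.0 and 134, with overlap only by T7 (log2 fold change -0.61, SE 0.27, limma adjusted p = 0.275). Fli1, an ETS factor of endothelial and blood cells, had 202 ± 41.7 and 143 ± 79.5 (SD, n = 5, adjusted p = 0.370), and it was highest in T4, at 280, where Erg was not.

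Among genes of vascular function, Nos3, the endothelial nitric oxide synthase, had 159, 216, 194, 189 and 195 normalized counts against 188, 121, 50.9, 77.8 and 137, with T1 inside the normoglycemic range and the other 4 D30 tumors below it (log2 fold change -0.85, SE 0.34, limma adjusted p = 0.214, and -0.37 without T4 and T5). Ramp2, a subunit of the adrenomedullin receptor, had 209 ± 45.1 and 123 ± 61.0 (SD, n = 5, adjusted p = 0.313), with T5 at 20.6. Egfl7, a secreted endothelial factor, had 782 ± 167 and 737 ± 377 and Rasip1, a factor of vessel lumen formation, 207 ± 32.8 and 154 ± 72.8 (limma adjusted p of 0.777 and 0.428). Without T4 and T5 the log2 fold change of Egfl7 was -0.05 (-0.25 with all tumors) and that of Rasip1 -0.09 (-0.54 with all tumors). Vwf, the clotting factor stored in endothelium, was higher by group means at 1225 ± 337 and 1606 ± 562 (adjusted p = 0.485), with its highest value, 2579, in T7. Nos3, Ramp2, Egfl7 and Rasip1 each overlap another protein-coding gene, as does Eng.

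Of the leukocyte adhesion genes, Vcam1, an integrin ligand of activated endothelium that stromal cells also make, had 2527, 2032, 1784, 2222 and 1848 normalized counts against 1101, 912, 1206, 304 and 1927. T7 overlapped with the normoglycemic tumors and the other 4 D30 tumors were below all of them (log2 fold change -1.14, SE 0.38, limma adjusted p = 0.140, and -0.74 without T5). Selp, the P-selectin of endothelium and platelets, had 102 ± 48.7 and 174 ± 121 (SD, n = 5, adjusted p = 0.438), and its highest value, 388, was in T5. Sele, the E-selectin induced by inflammation, ranged from 0 to 13.7 over all tumors, near the level of 3 reads (2.17 to 3.47 normalized counts, depending on the tumor), with an adjusted p of 0.706.

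Neither lymphatic marker was called. Lyve1, a hyaluronan receptor of lymphatic endothelium and some macrophages, had 257 ± 129 normalized counts in normoglycemic and 128 ± 31.7 in D30 tumors (SD, n = 5, limma adjusted p = 0.371), with the lowest value, 66.4, in the normoglycemic tumor N5. Prox1, the factor that sets lymphatic identity, was among the lowest of the 40 genes in level and ranged from 2.74 to 21 and from 0 to 9.25 (adjusted p = 0.299).

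Neighboring genes of the VEGF pathway outside the set were also examined. Of 12 such genes limma called 1 (against 2.76% of all genes tested), Dusp5, a nuclear phosphatase of ERK that VEGF induces, which was higher (1351 ± 370 against 2765 ± 731 normalized counts, SD, n = 5, log2 fold change 1.04, SE 0.22, limma adjusted p = 0.0243) without overlap of the groups. Vegfa, the main VEGF ligand, had 6332, 8857, 14267, 10185 and 8312 normalized counts against 14807, 16035, 8272, 50083 and 14876, with T4 inside the normoglycemic range and T5 far above (0.89, SE 0.39, adjusted p = 0.265, and 0.50 without T5). Its count over that of Vegfb was 3.76 to 6.12 in normoglycemic and 6.26 to 25.0 in D30 tumors. Vegfd, a ligand of Flt4, had 149 to 212 against 40.5 to 139, without overlap but not called (-0.94, SE 0.34, limma adjusted p = 0.177, and -0.46 without T4 and T5). The call of Dusp5 was lost with library-size scaling (0.81, adjusted p = 0.0633) and without N1, N2, N5 or N6.

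None of the 9 genes of endothelial Notch signaling was called by limma, edgeR or DESeq2, and Dll4, the Notch ligand of tip cells, had 635 ± 93.1 and 548 ± 182 normalized counts (SD, n = 5, limma adjusted p = 0.631). Of 38 further endothelial genes limma called 1 (2.63%, against 2.76% of all genes tested), and edgeR called the same gene (against 4.13%). This was Ets1, an ETS factor of endothelial and other cells, with 2045 ± 186 and 1203 ± 289 (log2 fold change -0.79, SE 0.19, limma adjusted p = 0.0448). DESeq2 called 3 of the 38, all lower, adding Gja5 and Ptprb, where it called 8.17% of all genes to which it gave an adjusted p. In that list 31 genes (81.6%, against 54.7% of all genes tested) were lower, with a median of -0.46 (against -0.06). The call of Ets1 held without T4 or T5 but was lost without any of the other 8 tumors, where the fold change stayed between -0.83 and -0.69, and without a filter on low genes (adjusted p = 0.0539).

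Over all genes limma called 2.76% (of 24560 tested), edgeR 4.13% (of 17127 tested) and DESeq2 8.17% (of the 22439 with an adjusted p). Of 12 angiogenesis inhibitors each of the 3 tools called 1, Sema3a, a class 3 semaphorin that binds Nrp1, with 685, 667, 387, 574 and 584 normalized counts against 123, 179, 169, 443 and 141. The D30 tumors were lower except for T5, which overlapped with N4 (log2 fold change -1.59, SE 0.33, limma adjusted p = 0.0216). The call was lost without N1, N2, N5, N6 or T7. Of 14 other angiogenic ligands limma and edgeR called none (2 had an unadjusted limma p under 0.05), and DESeq2 called 1, Adm, which was higher.

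Other cell types varied between the tumors as well, and their part in the values above was not tested. Counts of markers are given here as called by limma, beside 54.7% of all genes tested being lower and 2.76% being called. Where edgeR or DESeq2 is named, they called 4.13% and 8.17% of the genes to which each gave an adjusted p. Of 10 macrophage markers 9 were lower and 2 were called, Csf1r and Cd163, both lower (DESeq2 added Mrc1), with a summed level of 26501 to 57397 normalized counts in normoglycemic and 11673 to 67910 in D30 tumors. Stab1 and Stab2, scavenger receptors shared by sinusoidal endothelium and macrophages, were called lower among 4 sinusoidal markers (log2 fold changes -1.50 and -1.92, limma adjusted p of 0.0228 and 0.0208), whose sums were 2921 to 5795 and 851 to 2173. Of 10 pericyte markers 6 were lower and none was called (sums 7273 to 10750 and 5369 to 9520), and of 6 fibroblast markers 5 were lower and none was called (54327 to 101630 and 22930 to 74297), though DESeq2 called Col3a1 and Lum lower. Of 5 epithelial markers 4 were higher and 1 was lower, and none was called. All 5 had an unadjusted limma p under 0.05, against 17.3% of all genes tested, with log2 fold changes from -3.17 to 0.90. Their sums (193282 to 307827 and 312104 to 423233) did not overlap, and DESeq2 called Krt18 higher. Of 5 mesothelial markers 3 were higher and none was called (35560 to 43175 and 28638 to 97756), though edgeR called Upk3b and DESeq2 called Upk3b and Upk1b, all higher. Of 6 acinar markers 5 were lower and none was called by any tool, with sums of 269 to 56055 and 144 to 5364 and the highest in N6 and N2 (26151), the latter also the tumor with most of the highest values of the 40 genes. All 6 lymphoid markers were lower and none was called by any tool (86.8 to 246 and 36.0 to 235). Of 8 platelet markers 1 was called, Gp9, which was higher, and Gp1bb was at 0 in every tumor (sums 1686 to 2831 and 1594 to 3608).

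The endothelial label was checked by core markers of the set, beside the 38 further endothelial genes above. The 7 core markers Pecam1, Cdh5, Tie1, Esam, Egfl7, Robo4 and Erg were read in every tumor, with sums of 11529 to 19203 in normoglycemic and 5680 to 9389 in D30 tumors, and all 7 were lower, 1 of them called. The sums did not overlap, but Cdh5, itself called above, made up the largest share of each. It was the only 1 of the 7 whose groups did not overlap, and without it the sums overlapped. These markers are members of the set, so that their sums are no separate support.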

How the data were processed

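RNA of 10 tumors was sequenced from strand-specific libraries in pairs. According to the labels and methods, the authors trimmed reads with Trim Galore, aligned them with STAR 2.7.0e and used DESeq2. The labels name GRCm39 and the methods hg38, while the table lists mouse Ensembl identifiers. RSEM is named among the software, without saying whether its estimates gave these counts, in which case the recovered reads are rounded estimates. The annotation release and the counting settings are not given in the sources used here. The values that the authors deposited are a normalized signal, each count having been divided by its tumor's size factor. In every column 100.0% of values gave whole reads (within 0.01 of a read) once that factor was undone.

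Identifiers were matched without version to GENCODE M21 (GRCm38), which named 52083 genes (94.1%). Lengths per kilobase are of exons in that annotation. The design named limma's moderated test with trend on log2(normalized count + 1), run in limma 3.58.1 under R 4.3.3, for genes with a mean of at least 1, and the script was tested on simulated data. The alternatives were edgeR 4.0.16 and DESeq2 1.42.0 on recovered reads, other scalings, pseudocounts of 0.5 and 5, a mean of at least 10, no filter, and each tumor left out. Leaving out both T4 and T5 was chosen after seeing the data. Single values were compared by exact permutation tests. The members and lists were chosen with earlier results of these data known. By rule, values in every tumor were given for genes of the set called by any of the 3 tools, at an unadjusted limma p under 0.05 or without overlap, and for Pecam1, Cdh5 and Kdr. Of other pathway genes, those called, Vegfa, Vegfd and Dll4 were named. Genes named beyond it, with the ratios, were chosen after their values were seen.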

Additional observations from a re-analysis of the deposited data

Results flagged for a closer look

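In 80 groups of 5 tumors (40 genes in each of 2 conditions), 8 values stood apart from the other 4 of their group, by a gap that took up more than 0.71 of the group's range on the log2 scale. Chance flags about 1 group in 20. Of the 8 values 4 were in the D30 tumor T5. These were Kdr at 44.6 normalized counts (0.733 of the range, with the other D30 tumors at 273 to 525), Angpt1 at 2.29 (0.716, others 49.3 to 147), Ramp2 at 20.6 (0.822, others 125 to 183) and Selp at 388 (0.721, others 99.7 to 146), the last being high and the first 3 low.

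The other 4 were in normoglycemic tumors. Angpt1 was high in N1 at 337 (0.738, others 111 to 148), Aplnr was low in N5 at 223 (0.774, others 513 to 653), Esm1 was low in N6 at 352 (0.765, others 479 to 527), and Sox17 was low in N2 at 2797 (0.711, others 3888 to 4446). T4, the only tumor with Y-linked reads, had none of these values.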

How the results depend on the processing

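The number of genes of the set called (2) was 2 or 3 in edgeR, DESeq2, both other scalings, other pseudocounts and both other filters, 1 to 3 without 1 tumor and 6 without T4 and T5. Of all genes, edgeR called 4.13%, DESeq2 8.17%, the fit without T4 6.43%, that without T5 3.54% and that without T4 and T5 9.97%. Other scalings, pseudocounts and filters called 600 (no filter, of 33001) to 864 genes (library-size scaling, of 24617). Leaving out any other tumor gave 279 (N2, of 24532) to 587 calls (T1, of 24558). Genes whose groups did not overlap (2) numbered 2 with TMM scaling (5.0%, against 6.25% of all genes tested), 5 with library-size scaling (12.5%, against 8.18%), 2 to 9 without 1 tumor, the highest without T7 (22.5%, against 7.54%), and 8 without T4 and T5 (20.0%, against 19.0%). The sign turned for Tek in edgeR and DESeq2 (0.17 in each), and for Tek (0.56), Angpt2 (-0.12), Apln (-0.03), Cldn5 (-0.11) and Dll4 (0.03) without T4 and T5. It also turned for Angpt2 (-0.09) and Apln (-0.10) with library-size scaling, Apln without N1 (-0.04, with 0.34 the highest without 1 tumor) and Egfl7 without T5 (0.09, with -0.45 the lowest), none of these being called in any fit. Library-size scaling moved the median of all genes to -0.27 and that of the set to -0.84, with 32 genes lower. Over all genes the calls numbered 678 (344 higher and 334 lower), against 1833 in DESeq2, 864 (240 and 624) with library-size scaling and 707 (457 and 250) in edgeR. They numbered 1573 without T4, 2418 without T4 and T5, 433 without T7, and 279, 340 and 332 without N2, N5 and N6. The cause of these shifts was not tested. No paired analysis was possible because columns and labels number the tumors differently.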

Other observations

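Among angiogenic ligands outside the set, Adm (adrenomedullin, the ligand of the receptor that Ramp2 helps to form) had a log2 fold change of 2.02 (SE 0.65, limma adjusted p = 0.126) and was called by DESeq2 (2.63, adjusted p = 0.00107). It had 1664 and 3025 normalized counts in T4 and T5, against 254, 258 and 394 in T1, T2 and T7 and 96.5 to 355 in normoglycemic tumors. Among further endothelial genes, Gja5, a gap junction protein of arterial endothelium, was at -1.84 (SE 0.55, adjusted p = 0.0982, DESeq2 0.0154), and Ptprb, the phosphatase that acts on Tie2, was at -0.61 (SE 0.19, adjusted p = 0.104, DESeq2 0.0355). These 3 genes were named after their values were seen.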
